A study of Rattus norvegicus with 10 samples.

Results

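The probes described here read the enzymes that join glutathione, glucuronic acid or sulfate to drugs, hormones, bile acids and bilirubin in the liver. Members were all non-control probes whose gene symbol begins with Gsta, Gstm, Gstp, Gstt, Gstk, Gsto or Gstz (soluble glutathione transferases), Mgst (microsomal glutathione transferases), Ugt1 or Ugt2 (UDP-glucuronosyltransferases) or Sult (sulfotransferases). The rule found 52 probes of 44 genes among 41012 probes on the array, of which 16968 had a symbol, and 78 genes of the reference gene table meet it. Of the 52 probes, 45 were well above background on all 10 arrays, 3 on some arrays (Gsto2, Ugt2b7 and Sult4a1) and 4 on no array (Gstm6l, Gstt4, Sult1d1 and Ugt2a1). The rule used no measured value.

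Liver RNA came from male Wistar rats in 3 groups, taken 24 h after irradiation or at the same time in rats without it. The control group held 3 rats that were not irradiated, and the TBI group held 3 rats after total-body irradiation with gamma rays at 6.5 Gy, the dose on the array labels. The study's figure legends name a lower dose for these arrays. The MASM + TBI group held 4 rats that had received MASM, a derivative of the plant alkaloid matrine, into the stomach at 30 mg/kg a day for 3 days before the same irradiation. In the study's heatmap the names of the control and TBI arrays stand under the opposite headings, and groups here follow the array labels. Of 10 target genes of p53, the factor that DNA damage activates, 9 rose in the arrays labelled TBI and 9 in those labelled MASM + TBI against control by limma. Cdkn1a, which encodes the cell cycle inhibitor p21, read 8.01, 8.25 and 8.84 in control, 13.47, 13.67 and 14.06 in TBI, and 12.80 to 13.58 in MASM + TBI. These genes were picked after the other results were known, and they follow the array labels. No group received MASM without irradiation, so MASM + TBI against control holds the drug and the irradiation together. All values are the log2 of quantile-normalized signal of 1 Cy3-labelled array per rat, and all differences are on that log2 scale.

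Glutathione transferases attach the tripeptide glutathione to reactive compounds, and the conjugates are trimmed and acetylated to mercapturic acids. UDP-glucuronosyltransferases sit in the endoplasmic reticulum and use UDP-glucuronic acid; the Ugt1 genes are made from 1 locus by joining alternative first exons to shared later exons, while Ugt2 genes are separate neighbours. Sulfotransferases of the cytosol use the donor PAPS. Many genes of these families are transcribed under the control of Nrf2, the Ah receptor, CAR and PXR, and hepatocytes are their main site in the liver. Several families contain near-identical members (Gsta1 and Gsta2, Gstp1 and Gstp3, the Ugt1 genes, Sult1c2 and Sult1c2a, the Sult2a genes), and how far a probe of one also reads its relatives was not tested, since probe sequences were not used here.

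The promoters of the genes on which the results turn are printed here because they show how alike these relatives are. They are the 250 bases before the annotated start in RefSeq, build GRCr8, read 5′ to 3′ on the strand of the gene. Promoters were found for 38 of the 44 genes, and not for Gstm6l, Gstt1, Gstt2, Mgst2, Sult4a1 and Ugt2a1. Ugt2b1 (chr14:21378632-21378881, plus strand), Sult1c2a (chr9:7103203-7103452, minus strand) and Sult1c2 (chr9:7436731-7436980, plus strand) have in capitals every match to the motifs named in the next paragraph. Sult2a6 (chr1:84097809-84098058, minus strand) and Sult2a1 (chr1:84638948-84639197, minus strand) have in capitals the bases at which the 2 differ.
Ugt2b1: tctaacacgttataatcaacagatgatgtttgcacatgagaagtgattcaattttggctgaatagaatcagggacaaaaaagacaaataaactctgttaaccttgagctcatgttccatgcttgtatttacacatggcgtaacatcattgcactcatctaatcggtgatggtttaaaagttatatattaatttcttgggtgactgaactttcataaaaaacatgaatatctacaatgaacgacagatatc
Sult1c2a: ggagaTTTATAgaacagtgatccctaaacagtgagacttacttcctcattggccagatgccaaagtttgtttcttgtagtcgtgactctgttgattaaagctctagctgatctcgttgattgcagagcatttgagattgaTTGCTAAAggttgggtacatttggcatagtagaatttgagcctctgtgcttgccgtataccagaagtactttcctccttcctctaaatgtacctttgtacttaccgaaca
Sult1c2: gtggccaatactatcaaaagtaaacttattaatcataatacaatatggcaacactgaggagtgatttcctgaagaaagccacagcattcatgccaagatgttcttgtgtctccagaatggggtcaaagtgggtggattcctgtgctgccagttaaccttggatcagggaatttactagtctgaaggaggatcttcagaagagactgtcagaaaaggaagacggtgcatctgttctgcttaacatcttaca
Sult2a6: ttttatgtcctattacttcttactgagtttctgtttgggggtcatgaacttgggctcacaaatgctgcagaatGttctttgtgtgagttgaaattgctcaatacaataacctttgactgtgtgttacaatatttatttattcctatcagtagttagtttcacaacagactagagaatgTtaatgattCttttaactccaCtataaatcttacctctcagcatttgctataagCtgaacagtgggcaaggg
Sult2a1: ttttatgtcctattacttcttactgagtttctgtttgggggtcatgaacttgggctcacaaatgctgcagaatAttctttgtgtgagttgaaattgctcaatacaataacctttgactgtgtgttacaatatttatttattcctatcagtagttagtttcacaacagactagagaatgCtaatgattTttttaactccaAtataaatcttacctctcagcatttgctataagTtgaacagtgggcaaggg

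The Sult2a6 and Sult2a1 windows were identical at 245 of 250 positions, and Sult2a6 matched Sult2a2 at 219 of 263 columns of a global alignment. Sult1c2 and Sult1c2a, whose probes moved in the same direction after TBI, were far less alike upstream, with 136 identical bases in 285 alignment columns. Ugt2b1 shared 149 of 277 columns with Ugt2b7, the measured relative closest to it in position on chromosome 14, and 149 of 274 with Ugt2b15. On both strands, TGACNNNGC, the core of the antioxidant response element to which Nrf2 binds, was found in 10.2% of all 27457 promoters and in 4 of the 38 members (Gsta3, Gstm5, Gstm7 and Gstp1). GCGTG, the core of the element bound by the Ah receptor, was found in 27.2% of all promoters and in 8 of the 38 members (Gsta2, Gsta4, Gstm4, Gstm5, Gstp1, Gstp3, Sult2b1 and Ugt1a6). TATAAA, the TATA box, lay in 13.1% of all promoters and in 10 of the 38, and TTGCNNAA, a core bound by C/EBP factors, in 9.2% of all and in 10 of the 38; these last motifs were chosen after the promoters had been seen. Sult1c2a held TATAAA on the minus strand and TTGCNNAA on the plus strand without overlap between them, and the windows of Ugt2b1 and Sult1c2 held none of the 4 motifs. In Sult2a6 and Sult2a1 a TATAAA began 50 bases and a TTGCNNAA began 157 bases before the start, outside the positions at which the windows differ.

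The arrays were comparable in quality but not identical. The share of spots well above background was 57.2% to 59.9% in control rats, 64.1% to 70.1% in TBI rats and 56.2% to 60.2% in pretreated rats, and 0 spots were saturated. The 3 control arrays and the array of MASM + TBI rat 3 lay on slide 1, the 3 TBI arrays on slide 2 and the other MASM + TBI arrays on slide 3, so that TBI and slide cannot be told apart, and only MASM + TBI rat 3 could be set against controls within a slide. All 6 hepatocyte markers (Alb, Ttr, Apoa1, Serpina1, Cyp2e1 and Tat) were above background, with summed linear signal of 819000 to 888000 in control, 755000 to 923000 in TBI and 880000 to 928000 in MASM + TBI. Summed signal of the 6 T cell markers, of which Cd3e was not above background on any array, was 578 to 794, 252 to 461 and 225 to 421 in the same order. That of 3 measured erythroid markers was 2030 to 4930, 1050 to 2630 and 1060 to 1660, and that of 4 stellate markers 3190 to 3490, 2380 to 2720 and 2440 to 2720. The stellate sum followed Lrat, with group means of 11.17, 10.55 and 10.58 in that order. Rgs5 gave 6.69, 6.99 and 7, Col1a1 9.59, 9.6 and 9.71, and Des 7.01, 6.98 and 6.58. Each linear sum is led by its brightest markers, so the dimmer ones can move otherwise. Of the B cell markers reported, Cd79b was well above background on all 3 control arrays and on no irradiated array, and Cd74, which other antigen-presenting cells also express, read 15.29 and 15.38 in TBI rats 2 and 3, beside 10.86 in TBI rat 1, 11.84, 12.44 and 12.60 in control, and 10.36 to 11.28 in MASM + TBI. The Kupffer cell sum (6 markers) was 47300 to 67200, 46900 to 87100 and 37300 to 46400. The endothelial sum (4 markers) was 12700 to 15600, 16700 to 20600 and 14700 to 18500, the neutrophil sum (3) 374 to 623, 385 to 787 and 353 to 760, the bile duct sum (3) 479 to 570, 379 to 720 and 371 to 557, and that of 2 intestinal markers 380 to 521, 589 to 946 and 759 to 827. The part that these cell types and the slides play in the results was not tested, and in whole liver fewer cells of a type and less RNA per cell cannot be told apart.

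Ugt2b1 rose in MASM + TBI against control and against TBI, and had the lowest adjusted p of the 52 probes in either comparison. This glucuronosyltransferase of rat liver conjugates steroids and drugs such as morphine. Its signal was 13.38, 13.17 and 13.12 in the control rats, 13.39, 13.32 and 13.19 in the TBI rats, and 14.19, 14.52, 14.20 and 14.16 in the MASM + TBI rats. The control and TBI rats occupied the same range, and every MASM + TBI rat lay above all of them. Ugt2b1 rose by 1.04 (SE 0.11, 2.06-fold, adjusted p = 0.00332) in MASM + TBI against control and by 0.97 (SE 0.11, 1.96-fold, adjusted p = 0.00818) against TBI, by limma with Benjamini-Hochberg adjustment over all 40945 probes tested. TBI against control gave 0.08 (SE 0.12, 95% interval -0.20 to 0.35). On slide 1, MASM + TBI rat 3 lay 0.98 above the control mean; with slide as a fixed term, in a fit without the TBI rats, the adjusted p was 0.112. The 2 rises share the MASM + TBI rats and are not independent of each other.

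**Figure D1:**
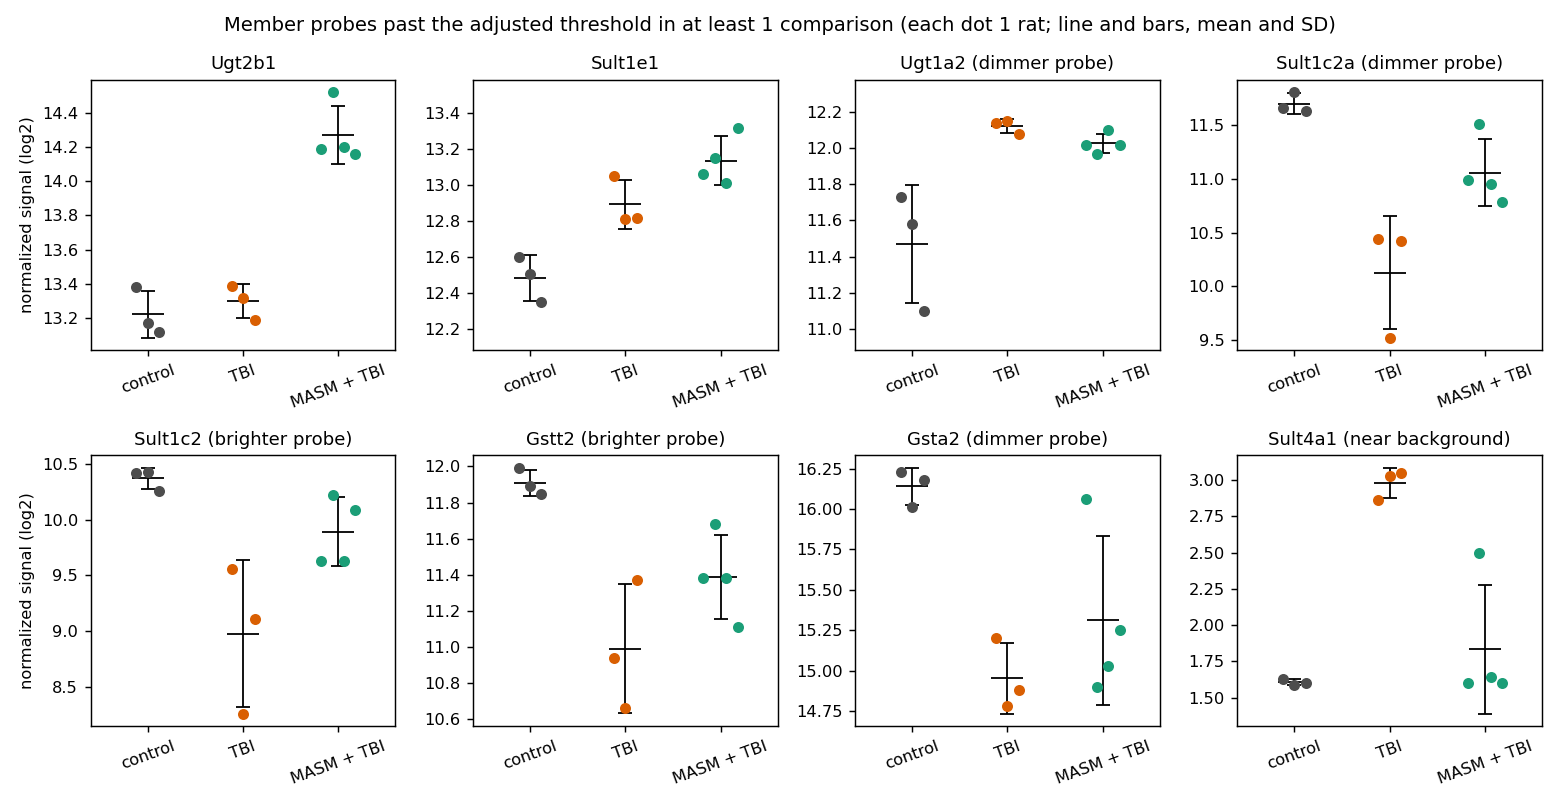
Normalized signal (log2) of the 8 genes with a probe past the adjusted threshold in at least 1 comparison; each dot is a rat (3 control, 3 TBI, 4 MASM + TBI), with the group mean and SD, and each panel has its own vertical scale. Ugt2b1 lies at 14.16 or more in each MASM + TBI rat and at 13.39 or less in each other rat, while the Sult1c2 and Sult1c2a probes are lowest in TBI.

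The other measured Ugt2 genes (8 probes of 7 genes) did not pass the threshold by limma in any comparison, beside 4.5%, 2.35% and 1.39% of all probes in TBI against control, MASM + TBI against control and MASM + TBI against TBI. At an unadjusted p under 0.05 without a fold limit, Ugt2b37 passed in TBI against control, beside 23.5% of all probes. The gene table places Sult1e1, Sult1d1, Sult1b1, Ugt2a1, Ugt2a3, Ugt2b, Ugt2b15, Ugt2b37, Ugt2b35, Ugt2b7 and Ugt2b1 in this order on chromosome 14, with few other genes between them. Ugt2b7l1 and Ugt2b10, on either side of Ugt2b1 in that table, had no probe here. In MASM + TBI against TBI, Ugt2b differed by -0.57 (SE 0.25, adjusted p = 0.305), Ugt2b15 by -0.28 (SE 0.21), Ugt2b35 by 0.01 (SE 0.19) and Ugt2b37 by 0.21 (SE 0.12). Ugt2a3 was 0.61 higher than in control (SE 0.31, adjusted p = 0.375) with MASM + TBI. Ugt2b was uneven among the pretreated rats: its brighter probe read 15.49 and 15.54 in MASM + TBI rats 1 and 3 but 16.33 and 16.28 in rats 2 and 4, and its dimmer probe 9.66 and 9.66 against 10.81 and 10.73. Both Ugt2b probes put rats 1 and 3 below all control and TBI rats, whose values ran from 16.06 to 16.82 and from 10.51 to 10.78. Ugt2b7 was well above background on 3 of 3 control, 2 of 3 TBI and 1 of 4 MASM + TBI arrays.

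**Figure D2:**
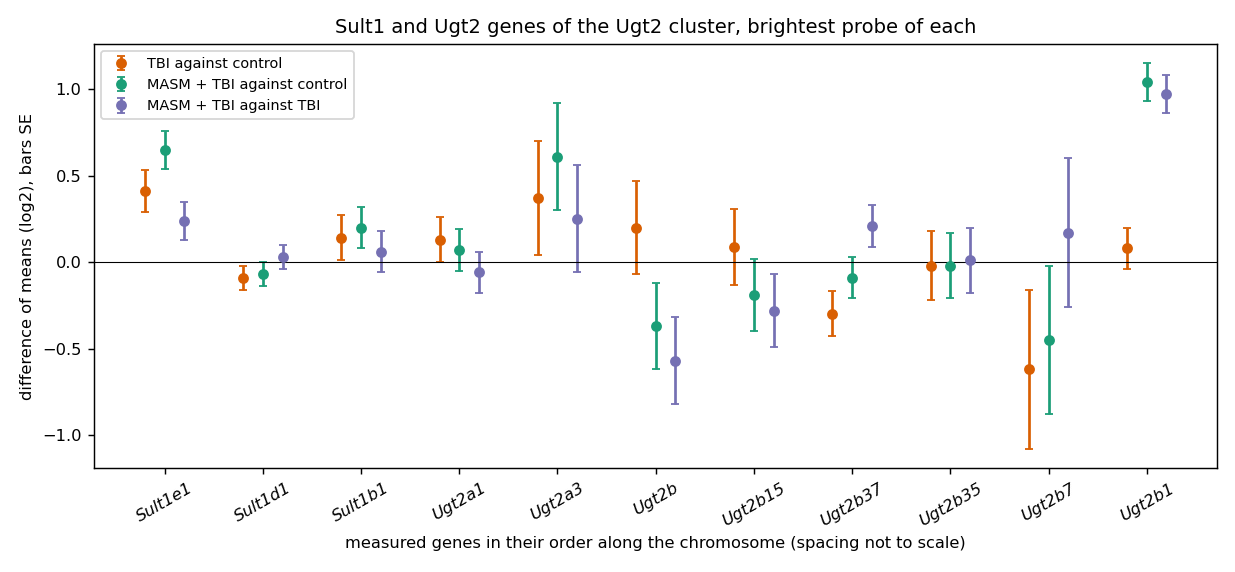
Difference of group means (log2, bars SE) for the measured Sult1 and Ugt2 genes of chromosome 14 in their order along it, with 1 colour per comparison and the brightest probe of each gene. Ugt2b1 stands at 1.04 and 0.97 in the MASM + TBI comparisons, beside values between -0.57 and 0.61 for the other Ugt2 genes in the same comparisons.

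Sult1e1, the estrogen sulfotransferase, rose in MASM + TBI against control. Its signal was 12.60, 12.51 and 12.35 in control, 13.05, 12.81 and 12.82 in TBI, and 13.06, 13.15, 13.01 and 13.32 in MASM + TBI. All irradiated rats were above all control rats, and the ranges of the TBI and MASM + TBI rats overlapped. The rise was 0.65 (SE 0.11, 1.57-fold, adjusted p = 0.0197, limma). The value in TBI against control was 0.41 (SE 0.12, adjusted p = 0.0802), and between the irradiated groups it was 0.24 (SE 0.11, adjusted p = 0.302). MASM + TBI rat 3 lay 0.52 above the control mean of its own slide, and with slide as a fixed term the call was lost (adjusted p = 0.209). The adjusted p of the rise became 0.0812 without control rat 3 and 0.0693 without control rat 2.

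Of 5 probes for the sulfotransferases of the 1C group, 2 fell after TBI, 1 of Sult1c2a and 1 of Sult1c2, beside 2.49% of all probes. The dimmer probe of Sult1c2a (dimmer and brighter always by the mean over the 10 arrays) read 11.66, 11.81 and 11.63 in control, 10.44, 9.52 and 10.42 in TBI, and 10.99, 11.51, 10.95 and 10.79 in MASM + TBI. The groups did not overlap, with the MASM + TBI rats between the others. It fell by 1.57 in TBI (SE 0.27, adjusted p = 0.0162, limma). MASM + TBI was 0.64 below control (SE 0.25, adjusted p = 0.237) and 0.93 above TBI (SE 0.25, adjusted p = 0.123). The brighter Sult1c2a probe gave a TBI difference of -1.74 (SE 0.46, adjusted p = 0.0663), or -1.13 without TBI rat 2 (adjusted p = 0.0385), and MASM + TBI was 1.08 above TBI, or 0.46 without that rat.

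For Sult1c2, the brighter probe read 10.42, 10.43 and 10.26 in control, 9.56, 8.26 and 9.11 in TBI, and 9.63, 10.22, 9.63 and 10.09 in MASM + TBI. Again no group overlapped another, and TBI rat 2 was lowest, as it was for both Sult1c2a probes. It fell by 1.39 in TBI (SE 0.31, 2.62-fold, adjusted p = 0.0397), and MASM + TBI was 0.91 above TBI (SE 0.29, adjusted p = 0.166). The dimmer Sult1c2 probe gave -1.36 (SE 0.76, adjusted p = 0.323), with TBI rat 2 at 3.39 and the other TBI rats at 6.63 and 6.0. Without TBI rat 2 the difference of the brighter probe from control was -1.03 (adjusted p = 0.0533), and MASM + TBI was 0.56 above TBI. Sult1c3, on the same stretch of chromosome 9, was -0.37 in TBI (SE 0.15, adjusted p = 0.176) and -0.38 in MASM + TBI (SE 0.14, adjusted p = 0.193; -0.24 with 75th percentile scaling) against control.

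Among the other Sult1 genes, Sult1a1, a phenol sulfotransferase, was 0.37 higher in TBI than in control (SE 0.10, adjusted p = 0.0807), and 0.31 lower in MASM + TBI than in TBI (SE 0.10, adjusted p = 0.159). Its TBI rats (14.71, 14.97 and 14.90) were above all control rats (14.33, 14.58 and 14.56) and all MASM + TBI rats (14.56, 14.57, 14.43 and 14.63). Sult1b1, which sulfates thyroid hormones, differed by 0.06 to 0.27 over its 2 probes and the 3 comparisons, with adjusted p values of 0.239 or more.

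The hydroxysteroid sulfotransferases, which act on bile acids and dehydroepiandrosterone, differed widely between rats of 1 group in Sult2a6 and Sult2a2. Sult2a6 read 12.14, 14.10 and 13.43 in control, 13.29, 14.07 and 15.09 in TBI, and 15.77, 15.88, 14.94 and 14.55 in MASM + TBI. All MASM + TBI rats were above all control rats and overlapped the TBI rats. The difference from control was the largest of any member probe, 2.06, but with an SE of 0.58 its adjusted p was 0.109 (unadjusted p = 0.00714). Without control rat 1 it was 1.52 (adjusted p = 0.239). Sult2a1 differed from control by 0.38 (SE 0.31) and Sult2a2 by 0.95 (SE 0.74), and control rat 1 had the lowest value of all 10 rats for each of the 3 genes. Sult2b1, the cholesterol sulfotransferase, was 0.95 lower in TBI (SE 0.33, adjusted p = 0.132) and 0.78 lower in MASM + TBI (SE 0.31, adjusted p = 0.241) than in control; with the normexp background correction these were -0.26 and -0.25, and MASM + TBI rat 3 differed from the controls of its slide by -0.35.

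**Figure D3:**
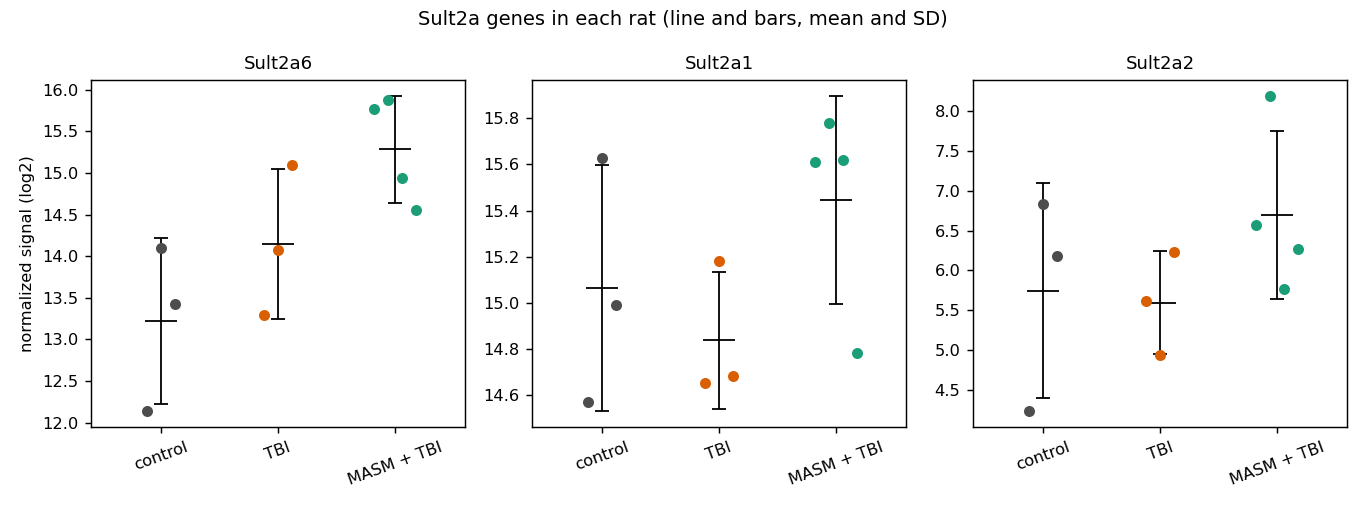
Normalized signal (log2) of the 3 Sult2a genes in each rat, with group mean and SD; each panel has its own vertical scale and levels are not compared between genes. For Sult2a6 the MASM + TBI rats (14.55 to 15.88) lie above the control rats (12.14 to 14.10).

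Sult4a1, a sulfotransferase-like protein known from brain, passed the threshold only near the detection limit. It read 1.63, 1.59 and 1.60 in control, 2.86, 3.03 and 3.05 in TBI, and 1.60, 2.50, 1.64 and 1.60 in MASM + TBI. It was not well above background on any control or MASM + TBI array, and was so on 1 of 3 TBI arrays. Its adjusted p was 0.0141 in TBI against control and 0.0416 in MASM + TBI against TBI, but the TBI signal lay below the lowest reliable signal of the other arrays, so no fold is given. The TBI arrays had the lowest detection floor, and with another background correction the TBI difference was 0.08.

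Of the 4 Ugt1 probes, 1 rose in TBI against control, beside 2.01% of all probes. The dimmer probe of Ugt1a2 read 11.73, 11.58 and 11.10 in control, 12.14, 12.15 and 12.08 in TBI, and 12.02, 11.97, 12.10 and 12.02 in MASM + TBI. All irradiated rats lay above all control rats, and the irradiated groups were much tighter than the control group, in which rat 3 was lowest. It rose by 0.66 in TBI (SE 0.15, 1.58-fold, adjusted p = 0.0389), and MASM + TBI was 0.56 above control (SE 0.14, adjusted p = 0.0718). Its brighter probe gave 0.49 (SE 0.14, adjusted p = 0.083) and 0.58 (SE 0.13, adjusted p = 0.0581). Ugt1a1, the enzyme that conjugates bilirubin, was 0.58 higher in TBI (SE 0.22, adjusted p = 0.168) and 0.64 higher in MASM + TBI (SE 0.21, adjusted p = 0.158), with lowest values over the alternatives of 0.37 and 0.43 when control rat 3 was left out. Ugt1a6, which acts on planar phenols, gave -0.09 (SE 0.21) and 0.29 (SE 0.19). Without control rat 3 the TBI value of the dimmer Ugt1a2 probe was 0.47 (adjusted p = 0.0399), below the 1.5-fold limit.

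Of 24 glutathione transferase probes, 2 fell after TBI, beside 2.49% of all probes. The dimmer Gsta2 probe, for an alpha-class enzyme abundant in hepatocytes, read 16.23, 16.01 and 16.18 in control, 15.20, 14.78 and 14.88 in TBI, and 16.06, 14.90, 15.03 and 15.25 in MASM + TBI. The TBI rats were all below the control rats, while MASM + TBI rat 1 lay within the control range and the other pretreated rats near the TBI rats. It fell by 1.18 (SE 0.28, 2.27-fold, adjusted p = 0.0472, limma). This call was lost in 11 of 19 alternatives, with values of -1.31 to -1.09. The brighter probe gave -0.58 (SE 0.12, adjusted p = 0.0351), just under the 1.5-fold limit. In MASM + TBI against control the dimmer probe gave -0.83 (SE 0.26, adjusted p = 0.145, limma) and the brighter -0.27 (SE 0.12, adjusted p = 0.294). Against TBI they gave 0.36 (SE 0.26, adjusted p = 0.532) and 0.32 (SE 0.12, adjusted p = 0.22). Gsta1, Gsta3 and Gsta4 differed from control in TBI by -0.03 (SE 0.12), 0.24 (SE 0.19) and 0.28 (SE 0.08, adjusted p = 0.0798).

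Gstt2, of the theta class, fell with TBI on its brighter probe. The values were 11.99, 11.89 and 11.85 in control, 10.94, 10.66 and 11.37 in TBI, and 11.38, 11.68, 11.38 and 11.11 in MASM + TBI. All irradiated rats were below all control rats. The fall was 0.92 (SE 0.19, 1.89-fold, adjusted p = 0.0333, limma), a call lost in 9 of 19 alternatives, with values of -1.11 to -0.76. MASM + TBI gave -0.52 against control (SE 0.18, adjusted p = 0.181) and 0.40 against TBI (SE 0.18, adjusted p = 0.316). The dimmer Gstt2 probe gave -0.43 in TBI (SE 0.17, adjusted p = 0.168), and Gstt1 gave 0.03 (SE 0.09).

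The mu, pi, kappa, omega and microsomal classes had no probe past the adjusted threshold by limma in any comparison. At an unadjusted p under 0.05 without a fold limit, the mu class had 4 probes in TBI against control, the pi class 1 and the others 0, beside 23.5% of all probes. In MASM + TBI against control the mu class had 2 and the pi class 1, beside 17% of all probes, and in MASM + TBI against TBI Gsto1 alone passed, beside 17%. Gstm4 was 0.95 lower in TBI (SE 0.25, adjusted p = 0.0616) and 0.60 lower in MASM + TBI (SE 0.23, adjusted p = 0.225) than in control. Gstp3 was 0.81 (SE 0.24, adjusted p = 0.0922) and 0.59 lower (SE 0.23, adjusted p = 0.224), with -0.28 for MASM + TBI rat 3 within its slide. Gstm1 was 0.40 (SE 0.13, adjusted p = 0.116) and 0.32 lower (SE 0.12, adjusted p = 0.239), with -0.13 within the slide. Gstm3 was 0.78 higher in TBI (SE 0.28, adjusted p = 0.139; 0.36 with normexp), with TBI rat 2 at 7.52 and both TBI rat 1 and control rat 1 at 6.26. Gstp1, which marks preneoplastic foci in rat liver, gave -0.15 (SE 0.15) and -0.04 (SE 0.14). Gsto1 was 0.31 higher in MASM + TBI than in TBI (SE 0.13, adjusted p = 0.284). Gstm7 differed from control by -0.42 in TBI (SE 0.18, adjusted p = 0.21, limma) and -0.25 in MASM + TBI (SE 0.17). For Gstm2 these were -0.03 (SE 0.18) and -0.13 (SE 0.17), and for Mgst2 -0.11 (SE 0.13) and -0.24 (SE 0.12). For Gstk1 they were 0.2 (SE 0.09) and 0.17 (SE 0.08). The membrane-bound Mgst1 spanned 15.68 to 15.95 over all 10 rats, with differences of -0.05 (SE 0.08), 0.08 (SE 0.07) and 0.13 (SE 0.07) in the 3 comparisons.

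Counted over the 52 probes, TBI against control called 6 (2 higher, 4 lower), or 11.5%, beside a background of 4.5% of all probes tested. Without control rat 3 the count was 0, beside 2.23% of all probes (8 at the unadjusted threshold given below, beside 11%). Without control rat 2 it was 1, beside 2.52%. Without TBI rat 2, MASM + TBI rat 1 or MASM + TBI rat 4 it was 3, beside 3.33%, 3.54% and 4.04%. The lower calls were 7.69% of the members beside 2.49% of all probes, and the higher calls 3.85% beside 2.01%. Of the 2 higher calls, 1 was Sult4a1, near the detection limit. With dim probes left out 1 was higher and 6 were lower, beside 7.64% of all probes in either direction. At an unadjusted p under 0.05 with the 1.5-fold limit, the study's threshold, 11 probes passed, or 21.2%, beside 12.6%; the 3 higher ones stood beside 6.53% of all probes and the 8 lower ones, 15.4% of the members, beside 6.09%. The median difference over the members was -0.09 beside -0.03 over all probes, and -0.03 on both sides without control rat 2. Values of control and TBI rats did not overlap for 22 probes, or 42.3%, beside 30.3% of all probes.

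MASM + TBI against control called 2 member probes (3.85%, beside 2.35% of all probes), both higher (0.926% of all probes). By limma 0 members were called lower, beside 1.43% of all probes, with 10 member probes (19.2%) lower at an unadjusted p under 0.05 without a fold limit, beside 8.48%. At the unadjusted threshold with the fold limit, 9 passed, or 17.3%, beside 8.06%, with 4 higher (7.69%, beside 3.52%) and 5 lower (9.62%, beside 4.55%), and the study's t-test gave 8 (4 higher, 4 lower) there and 0 after adjustment. MASM + TBI against TBI called 2, or 3.85%, beside 1.39%: Ugt2b1 higher (0.767% of all probes) and Sult4a1 lower (0.625%). At the unadjusted threshold 5 passed, or 9.62%, beside 7.98%, with 4 higher (7.69%, beside 3.15%) and 1 lower (1.92%, beside 4.83%). In the last comparison 39 of 52 member probes were higher, among them Gstm6l, Gstt4 and Sult1d1, which were above background on no array. The share of all probes that were higher was not counted. The median over the 52 was 0.17, beside 0.04 over all probes. Leaving out TBI rat 2 gave a median of 0.08, leaving out MASM + TBI rat 4 or blocking by replicate number gave 0.09, each beside 0.03, and normexp gave 0.08 beside 0.01. The first and last comparisons share the TBI rats. For the 5 largest named falls in TBI against control, the brightest probes of Sult1c2a, Sult1c2, Gstm4, Sult2b1 and Gstt2 gave -1.74, -1.39, -0.95, -0.95 and -0.92 there and 1.08, 0.91, 0.35, 0.17 and 0.40 in MASM + TBI against TBI. The TBI mean enters both with opposite signs, so these are not independent.

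**Figure D4:**
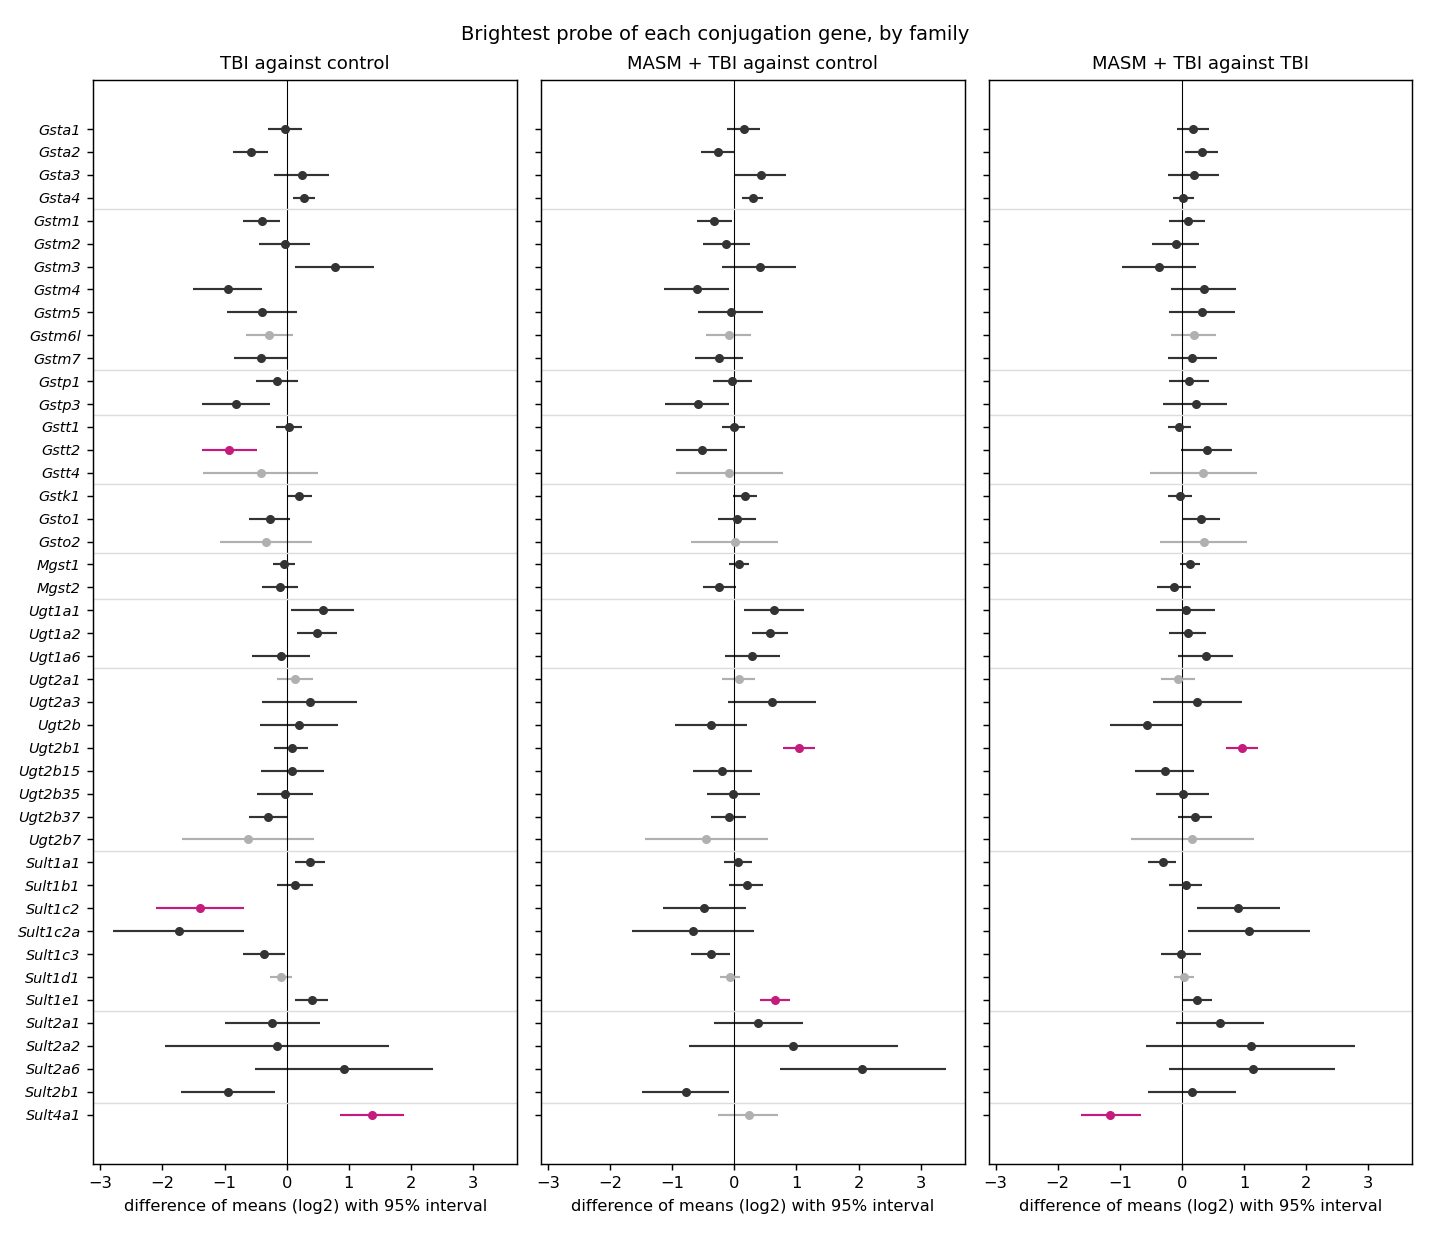
Difference of group means (log2) with its 95% interval for the brightest probe of each of the 44 genes, grouped by family; pink marks a probe past the adjusted threshold in that comparison, dark grey another probe well above background on all 10 arrays, and light grey one that was not. Most intervals include 0, and the pink probes are Gstt2, Sult1c2 and Sult4a1 in the first panel, Ugt2b1 and Sult1e1 in the second, and Ugt2b1 and Sult4a1 in the third.

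The genes around the conjugation step were measured for 62 of 72 listed. In TBI against control 2 rose and 7 fell, beside 2.01% and 2.49% of all probes, and in MASM + TBI against control 2 rose and 2 fell, beside 0.926% and 1.43%. In MASM + TBI against TBI 1 rose and 0 fell by limma after adjustment, beside 0.767% and 0.625%. At the unadjusted threshold with the fold limit, 6 were higher and 3 lower there, beside 3.15% and 4.83% of all probes. The same counts were 9 and 10 in TBI against control (6.53% and 6.09%), and 7 and 6 in MASM + TBI against control (3.52% and 4.55%). Nfe2l2, which encodes Nrf2, rose in both irradiated groups. Its values were 11.43, 11.20 and 11.26 in control, 12.59, 12.18 and 12.50 in TBI, and 12.34, 12.26, 12.16 and 12.48 in MASM + TBI. It rose by 1.13 in TBI (SE 0.13, adjusted p = 0.00372) and by 1.01 in MASM + TBI (SE 0.12, adjusted p = 0.0053), without overlap with control.

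The median difference of the 13 measured genes of glutathione supply and breakdown was 0.25 in TBI against control. Chac1, which degrades glutathione and was chosen after its values were seen, had 10.51, 11.13 and 11.89 in TBI beside 6.03, 8.68 and 6.82 in control, a difference of 4.0 (SE 1.39, adjusted p = 0.131), and 6.27 to 11.70 in MASM + TBI. Among the 13, Gclm, the modifier subunit of the enzyme that limits glutathione synthesis, fell in TBI and rose in MASM + TBI against TBI. It read 4.76, 4.52 and 4.39 in control, 2.35, 1.71 and 2.91 in TBI, and 4.98, 4.83, 4.42 and 5.24 in MASM + TBI. It was well above background on all control and MASM + TBI arrays and on 1 of 3 TBI arrays, so the TBI values lie near the background. The adjusted p was 0.00703 for the fall and 0.00682 for the rise by limma. The size is not settled: with dim TBI values set, a choice made after seeing the data, to their array's lowest reliable signal the differences were -1.58 and 1.89, and with the normexp background correction, under the 1.5-fold limit, -0.28 and 0.34. Nat8, which acetylates cysteine conjugates to mercapturic acids, fell by 1.89 in TBI (SE 0.27, adjusted p = 0.00847), with TBI rats from 11.03 to 11.33 and control rats from 12.71 to 13.39. The MASM + TBI rats, at 11.94 to 12.97, were 1.13 above TBI (SE 0.26, adjusted p = 0.0794).

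Of 4 genes of UDP-glucuronic acid supply and removal, Ugp2, which makes UDP-glucose, fell by 1.45 in TBI (SE 0.20, adjusted p = 0.00664) and by 0.89 in MASM + TBI (SE 0.18, adjusted p = 0.0443), where the call was lost in 14 of 20 alternatives. Of 4 export pumps, Abcc2, the pump that moves glucuronide and glutathione conjugates into bile, fell by 0.93 in TBI (SE 0.10, adjusted p = 0.00312) and by 0.73 in MASM + TBI (SE 0.10, adjusted p = 0.00833), the latter call lost in 4 of 20 alternatives. Control rats read 14.39, 14.19 and 14.30, TBI rats 13.39, 13.29 and 13.40, and MASM + TBI rats 13.39, 13.68, 13.69 and 13.49. Of 11 measured genes of sulfate supply and removal, Arsb, a lysosomal sulfatase, rose in MASM + TBI by 0.70 (SE 0.14, adjusted p = 0.0418), a call lost in 13 of 20 alternatives, with a lowest value of 0.34. Among 12 measured regulators, Nr1i3, which encodes CAR, fell by 0.98 in TBI (SE 0.21, adjusted p = 0.0327), and Nr1h4, the bile acid receptor FXR, rose by 0.66 (SE 0.15, adjusted p = 0.0431). Over 19 alternatives Nr1i3 lost its call in 9, with values of -1.23 to -0.64, and Nr1h4 in 12. Of 7 measured genes of other conjugations, Glyat, which conjugates acids to glycine, fell in TBI by 0.59 (SE 0.11, adjusted p = 0.0249), and of 11 measured Nrf2 and Ah receptor targets Akr7a3, an aldehyde reductase, fell by 1.46 (SE 0.34, adjusted p = 0.0451); these calls were lost in 9 and 12 of 19 alternatives. At the unadjusted threshold 3 of the 11 targets were higher and 2 lower in TBI, beside 6.53% and 6.09% of all probes. Nqo1, a quinone reductase chosen after its values were seen, was 1.05 higher in TBI (SE 0.35, adjusted p = 0.116) and 1.37 higher in MASM + TBI (SE 0.32, adjusted p = 0.0658), and Srxn1, which repairs peroxiredoxins, was 0.49 higher in TBI (SE 0.11, adjusted p = 0.0374), under the 1.5-fold limit.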

How the data were processed

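Liver RNA of 10 rats was labelled with Cy3 and hybridised to 4 × 44K rat oligonucleotide arrays. The authors deposited, per spot, the intensity computed by Feature Extraction 10.7.3.1 on a linear scale, after background subtraction and before any normalization between arrays. The series' own value table was identical to these intensities (difference 0). The array design used build RGSC v3.4 whereas gene symbols come from a newer assembly, so only promoters carry coordinates. The number of arrays limits the precision. The deposited intensities were put on the log2 scale and quantile normalized without the 1639 control spots and the 76 to 112 outlier spots per array, none of them on member probes. Symbols came from RefSeq accessions, which gave 16968 of 41012 probes a symbol.

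A model with 3 group means was fitted to all 10 arrays with limma 3.58.1 (R 4.3.3, data.table version 1.17.8; plots with Python 3.11.15 and matplotlib 3.10.9), adjusted by Benjamini-Hochberg over 40945 probes, and tested on simulated data. A call needed an adjusted p under 0.05 and a fold of at least 1.5. Named genes were all called members, in each comparison the 5 largest rises and 5 largest falls at an unadjusted p under 0.05 with the brighter group well above background, fixed liver members, and called pathway genes. Of the fixed members, Ugt2a1 and Ugt2b7, not well above background on all arrays, are named without a difference. The members and lists were chosen with earlier results of these data known. A member gene with several probes is given by its brightest, and its other probes are given where their call differed. Pathway genes and markers are given by their brightest probe alone. Their other probes were not examined (Ugp2 has 3 probes, Nr1i3 and Chac1 have 2 each). Alternatives tried were 75th percentile scaling, normexp (offset 50, on median pixels, since the files hold no mean), the series' value table, omission of dim probes, a fit of only the groups compared, a trended robust prior, the study's t-test, blocks by replicate number and slide, and each rat left out. Columns of other samples numbered 0. Protein and probe sequences were not used here. One marker is not reported here.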

Additional observations from a re-analysis of the deposited data

Results flagged for a closer look

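Among the 52 member probes, 6 had a rat in the MASM + TBI group of 4 that stood apart from the others by Dixon's test, a gap that chance gives in about 1 of 20 groups. For Ugt2b1, rat 2 was highest at 14.52, beside 14.16 to 14.20 in the other MASM + TBI rats. For the brighter Ugt1a2 probe rat 2 was lowest at 12.90 (others 13.04 to 13.07), and for Gsta4 rat 1 was lowest at 12.59 (others 12.66 to 12.67). The remaining flags were on probes not well above background in this group: Sult4a1 in rat 2 (2.50, others 1.60 to 1.64), Gstt4 in rat 4 (2.68, others 1.43 to 1.52) and Ugt2a1 in rat 4 (1.52, others 1.24 to 1.25). Without rat 2, Ugt2b1 was called in both comparisons, at 0.96 against control and 0.88 against TBI. The groups of 3 rats were not tested.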

How the results depend on the processing

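None of the 46 single results recomputed under the alternatives changed direction. Of the 156 differences of member probes, 45 changed sign in at least 1 alternative, none of them among the 49 at an unadjusted p under 0.05; the largest was 0.37 (Ugt2a3 in TBI against control). Counts of called members are given with the share of all probes called in the same fit. The TBI against control count after adjustment, 6 by default, was 10 (2 higher, 8 lower) with 75th percentile scaling (17%) and 2 with only the groups compared (2.3%). It was 11 with slide as a random block (9.96%, estimated correlation -0.133) and 0 by the study's t-test (0.0244%). With normexp (1.35%), or without dim probes (7.64%), it was 7 (1 higher, 6 lower). When a rat was left out it was 0 to 5 (shares of 2.23% to 5.65%). The TBI against control count at the unadjusted threshold, 11, was 6 by the study's t-test (7.08%) and 16 with 75th percentile scaling (25.3%). With a rat left out it was 8 to 14 (shares of 11% to 13.4%). For MASM + TBI against control the adjusted count, 2, was 0 by the t-test (0.0684%; 8 unadjusted, 5.75%), 0 with slide as a fixed block (1.28%) and 3 with slide as a random block (4.41%), and 1 to 4 with a rat left out: 4 without control rat 1 (2.12%), and 1 without control rat 2 (1.13%), control rat 3 (1.14%) or MASM + TBI rat 2 (1.77%). The unadjusted count, 9, was 5 with normexp (1.83%), 5 with slide as a fixed block (8.93%), 11 with only the groups compared (8.26%), 8 (6 higher and 2 lower) with 75th percentile scaling (7.93%), and 4 to 10 with a rat left out (4 without control rat 3, 6.88%; 5 without MASM + TBI rat 4, 7.62%; 6 without MASM + TBI rat 1, 7.33%). For MASM + TBI against TBI the adjusted count, 2, was 4 with 75th percentile scaling (12.5%) and 3 with slide as a random block (3.42%). It was 1 with normexp (0.193%), 1 without dim probes (2.02%), 1 with only the groups compared (0.622%) and 0 by the t-test (0.00733%, and 2 unadjusted, 4.03%). With a rat left out this comparison gave 1 to 2 (shares of 0.586% to 2.64%). Its unadjusted count, 5, was 11 (10 higher, 1 lower) with 75th percentile scaling (21.1%), 7 with slide as a random block (9.97%), 2 by the t-test, and 3 to 8 with a rat left out (3 without TBI rat 2, 6.8%; 8 without TBI rat 1, 9.44%, or TBI rat 3, 8.89%). The cause of these shifts was not tested. Ugt2b1 was called in each fit that left out a rat. Among all alternatives it lost its call in 2 of 20 against control and in 2 of 19 against TBI. Its difference ran from 0.96 to 1.18 against control and from 0.88 to 1.04 against TBI. Its adjusted p over all alternatives ran from 0.000959 to 0.112 against control and from 0.00178 to 0.167 against TBI. Sult1e1 lost its call in 7 of 20 alternatives. Numbers of alternatives, here and above, include the series' value table, which is identical to the intensities used and could change no call. The brighter Sult1c2 probe, the dimmer Gsta2 probe and the dimmer Ugt1a2 probe each lost theirs in 11 of 19, Gstt2 in 9, the dimmer Sult1c2a probe in 5, and Sult4a1 in 3 of 18 against control and in 13 of 18 between the irradiated groups. Nfe2l2 lost its call in 1 of 19 alternatives in TBI and 2 of 20 in MASM + TBI against control, Nat8 in 2 of 19, Gclm in 2 and 3 of 19, and Ugp2 and Abcc2 in 1 of 19 each in TBI. Low signal limits Sult4a1, Gclm, Ugt2b7 and Gsto2.

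Replicate numbers did not pair the rats: deviations of same-numbered rats correlated at -0.125 to 0.169 (median 0.019), and 2 of 10 arrays correlated best with their own number. With the number as a block, the adjusted counts were 1, 1 and 0 in TBI against control, MASM + TBI against control and MASM + TBI against TBI (2.51%, 0.728% and 0.0537% of all probes), with 11, 7 and 6 at the unadjusted threshold by limma (12.4%, 7.95% and 7.83%).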
